A study of Homo sapiens with 9 samples.

Results

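The genes described here are 36 aminoacyl-tRNA synthetase genes named in the human annotation GENCODE 29, taken from 58395 gene identifiers by their symbols. No measured value entered this rule, but the members were chosen with earlier results of these data known. They were 20 cytosolic genes and 16 genes for the mitochondrial enzymes, whose names end in 2. RNA was sequenced from MDA-MB-231, an established triple negative breast cancer cell line, 96 h after reverse transfection with a nontargeting control siRNA (siNC) or with 1 of 2 siRNAs, siZIP7_1 and siZIP7_2, against ZIP7 (SLC39A7), a transporter that moves zinc out of the endoplasmic reticulum. Each of the 3 groups held 3 libraries, all from cells grown in the same serum-containing medium with no other agent named. Both siRNAs were single sequences bought from different suppliers, and no library in which ZIP7 was put back was analysed here. The study used these libraries to see how gene expression responds to loss of ZIP7, and here the cytosolic and mitochondrial enzymes were compared across the groups. The compartment given by the name was incomplete for GARS and KARS, which encode the glycyl and lysyl enzymes of both compartments and were counted as cytosolic. FARSA and FARSB encode the subunits of a single enzyme.

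Each aminoacyl-tRNA synthetase joins an amino acid to its own tRNA, which then carries it to the ribosome. In the cytosol a number of these enzymes sit together in a multisynthetase complex held by the scaffold proteins AIMP1, AIMP2 and EEF1E1, while the others work outside it. Mitochondria keep their own ribosomes and tRNAs, and most of their synthetases come from separate nuclear genes. When uncharged tRNA or misfolded protein accumulates, kinases of the integrated stress response favour translation of the transcription factor ATF4, which is known to raise many cytosolic synthetase genes by binding C/EBP-ATF response elements near their starts.

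Promoter windows from 250 bases before to 50 bases after the annotated start (RefSeq, GRCh38.p14) were matched for 30 of the 36 genes. The core of the C/EBP-ATF response element, TGATGNAA, was searched on both strands and was present in the windows of 7 of 16 cytosolic genes (43.8%) and of 1 of 14 mitochondrial genes, YARS2 (7.14%), beside 4.46% of all genes with a window. The stretches of the 7 cytosolic genes are shown because they carry the element through which ATF4 is known to act, with the match in capitals and 10 bases on each side, 5′ to 3′ on the strand of the gene. A match whose capitals do not open with TGATG lies on the opposite strand.
AARS: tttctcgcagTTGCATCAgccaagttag
CARS: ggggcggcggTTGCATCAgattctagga
GARS: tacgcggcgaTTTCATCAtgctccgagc
IARS: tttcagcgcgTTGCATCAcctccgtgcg
MARS: ccggttccggTTGCATCAgcgagggatt
NARS: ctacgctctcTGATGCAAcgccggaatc
TARS: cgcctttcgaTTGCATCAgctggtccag
These stretches were at chr16:70289676-70289703 (AARS), chr11:3057408-3057435 (CARS), chr7:30594835-30594862 (GARS), chr9:92293693-92293720 (IARS), chr12:57488054-57488081 (MARS), chr18:57621805-57621832 (NARS) and chr5:33440957-33440984 (TARS), with AARS, CARS, IARS and NARS on the minus strand and the others on the plus strand. The E-box CACGTG, a site known for MYC and related factors and the same on both strands, was present in 3 of 14 mitochondrial windows (21.4%) and in 1 of 16 cytosolic windows, that of IARS (6.25%), beside 8.77% of all genes with a window. The mitochondrial stretches are shown with the E-box in capitals, since EARS2 was the mitochondrial gene that fell furthest.
CARS2: ctgggatgcaCACGTGcttcgctaac
EARS2: gggagaagccCACGTGtgctattcca
MARS2: gcgcctctcaCACGTGctgtcagaac
They were at chr13:110706503-110706528 on the minus strand (CARS2), chr16:23557350-23557375 on the minus strand (EARS2) and chr2:197705348-197705373 on the plus strand (MARS2). A match describes the letters in the window, and binding was not measured.

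SLC39A7, the targeted gene, was at 321, 343 and 322 CPM (counts scaled to a library of fixed size with TMM factors) in the siNC libraries, at 35.4, 32.9 and 38.6 CPM with siZIP7_1 and at 20.5, 19.5 and 17.6 CPM with siZIP7_2. The log2 fold changes were -3.20 ± 0.058 (SE) for siZIP7_1 and -4.10 ± 0.063 for siZIP7_2, and every library of both knockdown groups lay below every siNC library. The libraries held 24153785 to 30454419 counts assigned to genes, and each of the 36 genes had between 80 and 19638 counts in every library. All 36 genes were among the 16761 genes tested. All 5 markers set for the cell line (VIM, CD44, FN1, KRT18 and MSN) were detected, with a summed level of 7940 to 8320 CPM in the siNC libraries, 5160 to 5470 CPM after siZIP7_1 and 7220 to 7500 CPM after siZIP7_2. VIM had log2 fold changes of -1.04 and -0.93 and CD44 of -0.81 and 1.14, and those of FN1, KRT18 and MSN are not given here. VIM shares 24.4% of its exonic bases with genes on the other strand, so its values were uncertain. PGR, CLDN5, CD3E, HBB and DCN, markers of luminal epithelium, endothelium, blood cells and fibroblasts, had at most 3 counts in every library. Most other markers of these lists were detected. More than 3 counts in some library were found for 4 of 5 luminal, 4 of 5 endothelial and 4 of 5 fibroblast markers. The same held for 2 of 4 blood cell markers. The summed level of the 5 fibroblast markers was 57.7 to 63.8 CPM in the siNC libraries, 123 to 133 CPM after siZIP7_1 and 185 to 209 CPM after siZIP7_2, and that of the 5 endothelial markers was 6.86 to 7.51, 7.47 to 9.32 and 12.8 to 14.4 CPM. The summed level of 4 blood cell markers was 1.68 to 2.87, 1.31 to 1.6 and 9.15 to 12.2 CPM, and the luminal markers at 88.8 to 92.2, 95.9 to 104 and 71.4 to 75.5 CPM. Reads outside any gene made up 7.43% to 8.28% of the siNC libraries, 7.8% to 9.62% of the siZIP7_1 libraries and 9.99% to 11.5% of the siZIP7_2 libraries. The part of these shifts in the results on the synthetases was not tested.

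Per kilobase of exon, the cytosolic synthetases were the more abundant group in control cells. Their median was 45.6 RPKM with siNC, from CARS at 17 ± 0.206 (SD, n = 3) to GARS at 122 ± 3.3 RPKM, and the median of the mitochondrial genes was 7.08 RPKM, from SARS2 at 1.92 ± 0.0671 to IARS2 at 49.2 ± 0.962 RPKM. The length counts all annotated exonic bases of a gene (10037 for CARS), which can be more than 1 mRNA holds. By CPM, CARS (mean 171 with siNC) lay above DARS (81.4) and FARSB (86.2), so its lowest place depends on this length. IARS2, the mitochondrial isoleucyl enzyme, was the 1 mitochondrial gene above the lowest cytosolic gene, and it lay between VARS (54.4 ± 2 RPKM) and YARS (46.8 ± 1.17 RPKM). In the 15 pairs of a cytosolic and a mitochondrial gene for the same amino acid, the cytosolic gene was the higher in every pair by 1.43-fold (IARS over IARS2) to 48.6-fold (SARS over SARS2), with a median of 6.62-fold. EPRS, which holds the glutamyl and the prolyl enzyme in 1 protein, entered these pairs with both EARS2 and PARS2. SARS2 shares 57% of its exonic bases with MRPS12 and a further annotated gene, so its low level was uncertain because reads in such bases can be left unassigned.

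**Figure D1:**
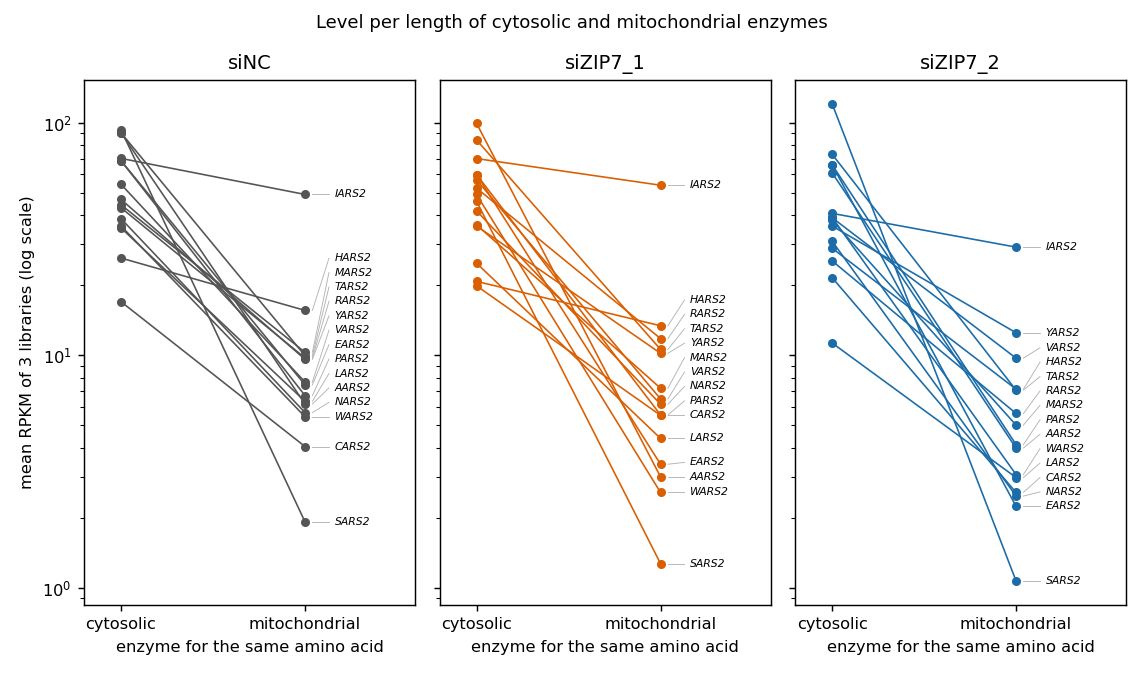
Mean level per kilobase of exon (RPKM, log scale, 3 libraries each) of the cytosolic (left points) and mitochondrial (right points, named) gene for the same amino acid in each siRNA group, with a line joining each of the 15 pairs. With siNC every line slopes down, from a 1.43-fold gap for IARS2 to a 48.6-fold gap for SARS2.

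More synthetase genes fell than rose with each siRNA, in both compartments. With siZIP7_1, 7 cytosolic genes rose, 10 fell and 3 did not pass the test (edgeR quasi-likelihood test, adjusted p under 0.05), while 3 mitochondrial genes rose, 10 fell and 3 did not pass. Of all genes tested 70.7% passed in this comparison, 34.8% higher and 35.9% lower, so that a call alone was common. The median log2 fold change was -0.13 for the cytosolic and -0.26 for the mitochondrial genes, against -0.01 over all genes tested. With siZIP7_2, 4 cytosolic genes rose and 14 fell, and 2 mitochondrial genes rose and 14 fell, where 77.8% of all genes passed, 38.5% higher and 39.3% lower. The medians were -0.43 and -0.77 for the cytosolic and mitochondrial genes, against 0 over all genes. These comparisons share the siNC libraries and are given side by side for that reason. In RNA from whole cultures, fewer cells of a kind and less RNA per cell cannot be told apart. With a test against a change of 1.2-fold, the cytosolic genes called higher with siZIP7_1 went from 7 to 1 and those called lower from 10 to 6, and the mitochondrial genes called higher went from 3 to 1. Over all 16761 genes tested, the number called with siZIP7_1 went from 11851 to 8574.

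**Figure D2:**
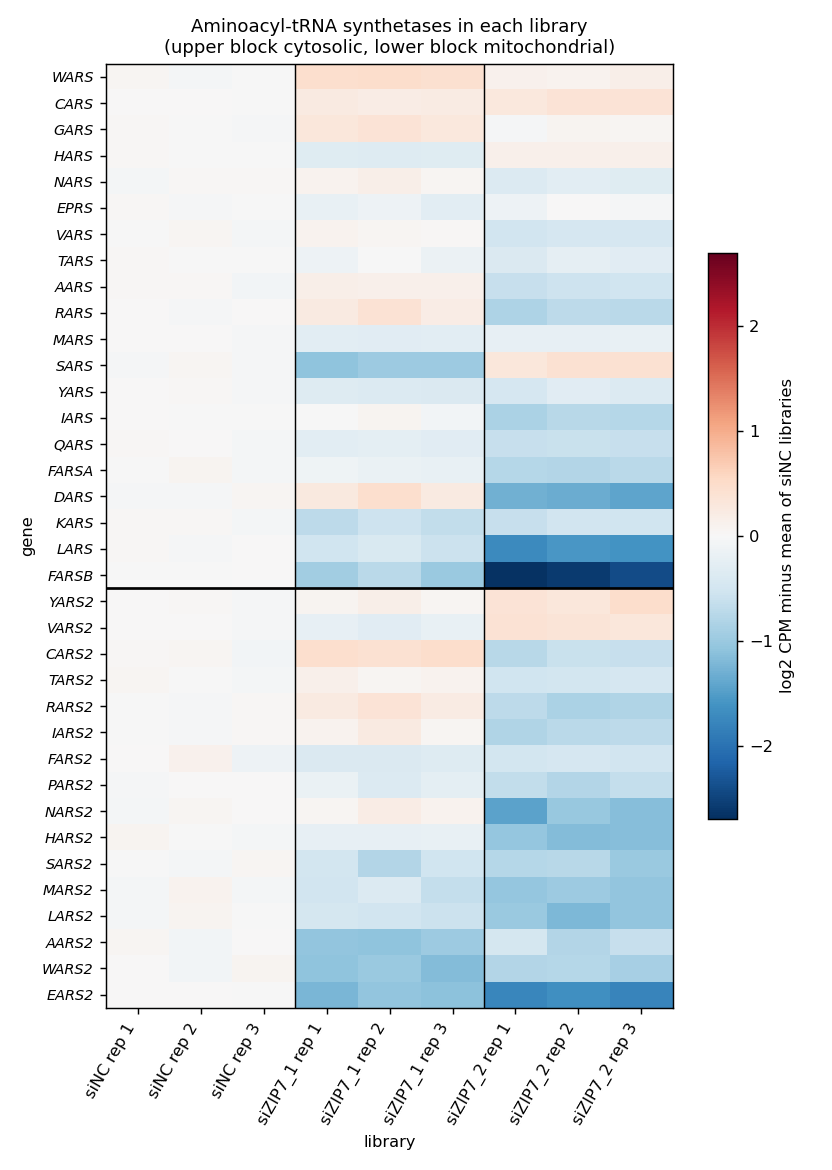
Level of each of the 36 genes in each of the 9 libraries, as the log2 of its CPM relative to the siNC mean (blue lower, red higher), with the 20 cytosolic genes above the line and the 16 mitochondrial genes below it. The 3 libraries of a group resembled each other, and the siZIP7_2 columns are blue for most genes, deepest for FARSB.

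Summed over the 20 cytosolic genes, the libraries held 5830, 5810 and 5676 CPM with siNC, 5382, 5547 and 5267 CPM with siZIP7_1 and 4461, 4733 and 4691 CPM with siZIP7_2. Summed over the 16 mitochondrial genes, they held 681.7, 680.8 and 674.3 CPM with siNC, 621.3, 645.2 and 614.9 CPM with siZIP7_1 and 437.4, 437.7 and 441 CPM with siZIP7_2. The 3 groups did not overlap in either sum. With siZIP7_2 the mean cytosolic sum was 19.8% below that of siNC and the mean mitochondrial sum 35.4% below, while with siZIP7_1 they were 6.47% and 7.63% below. The ratio of the cytosolic to the mitochondrial sum was 8.5 ± 0.07 (SD, n = 3) with siNC, 8.61 ± 0.046 with siZIP7_1 and 10.5 ± 0.31 with siZIP7_2, and the siZIP7_2 libraries ranged from 10.2 to 10.8. These sums are dominated by their most abundant genes and were not tested.

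**Figure D3:**
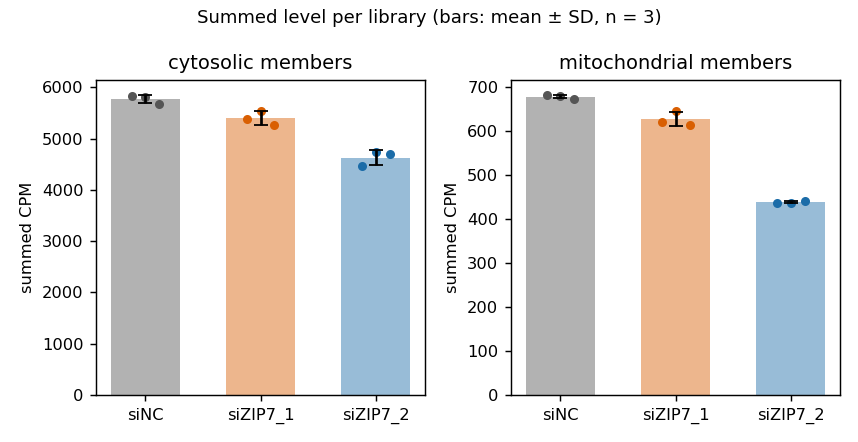
Summed CPM of the 20 cytosolic genes and of the 16 mitochondrial genes in each siRNA group (bars, mean ± SD, n = 3, points are libraries, axes from 0). The siZIP7_2 libraries lie lowest in both panels, at 4461 to 4733 CPM for the cytosolic and 437.4 to 441 CPM for the mitochondrial genes.

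The deepest change of the 36 genes was in FARSB, which encodes the beta subunit of the cytosolic phenylalanyl enzyme (chr2:222570536-222656337, GRCh38). FARSB was at 86.0, 85.2 and 87.4 CPM with siNC, 45.1, 51.9 and 43.3 CPM with siZIP7_1 and 13.6, 14.3 and 16.1 CPM with siZIP7_2. The groups did not overlap, and FARSB fell by 0.88 ± 0.06 on the log2 scale after siZIP7_1 (adjusted p = 1.09e-13) and by 2.55 ± 0.069 after siZIP7_2 (adjusted p = 4.09e-23). FARSA, which encodes the alpha subunit of the same enzyme, was at 256, 274 and 249 CPM with siNC, 240, 229 and 227 CPM with siZIP7_1 and 152, 150 and 156 CPM with siZIP7_2. FARSA fell by 0.16 ± 0.047 and 0.76 ± 0.047 on the same scale, so both subunit mRNAs were lower but by different amounts. The siZIP7_1 call of FARSA was lost without siNC replicate 2 (edgeR adjusted p = 0.0514). No exonic base of FARSB is shared with another annotated gene.

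The 8 cytosolic synthetases of the multisynthetase complex had median log2 fold changes of -0.24 with siZIP7_1, where 2 rose and 5 fell, and of -0.69 with siZIP7_2, where none rose and 7 fell. Over all genes tested the shares were 34.8% higher and 35.9% lower with siZIP7_1, and 38.5% and 39.3% with siZIP7_2. LARS, the leucyl enzyme that is also known as a leucine sensor for mTORC1, was at 291, 279 and 290 CPM with siNC, 197, 216 and 192 CPM with siZIP7_1 and 86.5, 96.5 and 93.2 CPM with siZIP7_2. LARS fell with both siRNAs, by 0.51 and 1.64 on the log2 scale, with no overlap between groups. DARS, the aspartyl enzyme, was at 80.2, 79.7 and 84.4 CPM with siNC, 97.7, 112 and 96.5 CPM with siZIP7_1 and 33.1, 32.4 and 30.5 CPM with siZIP7_2. DARS thus rose with siZIP7_1 (log2 fold change 0.32 ± 0.055, adjusted p = 5.42e-06) and fell with siZIP7_2 (-1.35 ± 0.059, adjusted p = 3.55e-18). RARS, the arginyl enzyme, was at 148, 145 and 149 CPM with siNC, 175, 193 and 170 CPM with siZIP7_1 and 82.1, 90.8 and 88.5 CPM with siZIP7_2, the same order of groups as DARS, with log2 fold changes of 0.28 ± 0.05 and -0.76 ± 0.052. KARS, the lysyl enzyme of both compartments, was at 271, 271 and 257 CPM with siNC, 164, 180 and 167 CPM with siZIP7_1 and 173, 185 and 184 CPM with siZIP7_2. KARS fell with both siRNAs (log2 fold changes of -0.65 and -0.56), and the difference between the siRNAs was 0.09 ± 0.048 in edgeR (adjusted p = 0.0921) and passed the test in DESeq2 (adjusted p = 0.0204). QARS and MARS, the glutaminyl and methionyl enzymes, fell with both siRNAs (-0.29 and -0.61 for QARS, -0.29 and -0.22 for MARS). EPRS fell with siZIP7_1 (-0.20) and was at -0.06 with siZIP7_2, while IARS, the isoleucyl enzyme, was at 0 with siZIP7_1 and fell by 0.79 with siZIP7_2. MARS shares 13.3% of its exonic bases with neighbouring genes, DDIT3 among them.

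The scaffolds of the complex moved down with both siRNAs. AIMP2, which holds several of the enzymes together, had log2 fold changes of -0.79 ± 0.056 with siZIP7_1 and -1.27 ± 0.059 with siZIP7_2. AIMP1 had -0.39 and -0.70, and EEF1E1 -0.64 and -0.90, and all 6 of these values passed the test. Over all genes tested, 70.7% passed with siZIP7_1 (35.9% lower) and 77.8% with siZIP7_2 (39.3% lower). AIMP2 shares 28.9% of its exonic bases with EIF2AK1 on the other strand. The counting is not known to use strand, so reads in the shared bases cannot be told apart.

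Of the 12 cytosolic genes outside the complex, 5 rose and 5 fell with siZIP7_1 (median log2 fold change -0.01), and 4 rose and 7 fell with siZIP7_2 (median -0.32). Among all genes tested, 34.8% rose and 35.9% fell with siZIP7_1, and 38.5% and 39.3% with siZIP7_2. SARS, the seryl enzyme (chr1:109213918-109238169, GRCh38), was at 350, 371 and 352 CPM with siNC, 169, 180 and 180 CPM with siZIP7_1 and 441, 474 and 477 CPM with siZIP7_2. SARS thus fell with siZIP7_1 (log2 fold change -1.02 ± 0.048, adjusted p = 2.3e-17) and rose with siZIP7_2 (0.37 ± 0.047, adjusted p = 3.65e-08). HARS, the histidyl enzyme, was at 211, 203 and 204 CPM with siNC, 165, 161 and 165 CPM with siZIP7_1 and 228, 226 and 227 CPM with siZIP7_2, and so followed SARS in direction at smaller size (-0.33 ± 0.044 and 0.14 ± 0.043). GARS, the glycyl enzyme of both compartments, was at 519, 504 and 492 CPM with siNC, 628, 649 and 616 CPM with siZIP7_1 and 496, 534 and 523 CPM with siZIP7_2. GARS rose with siZIP7_1 (0.32 ± 0.046) and its siZIP7_2 libraries overlapped those of siNC (0.04 ± 0.046, adjusted p = 0.482). CARS, the cysteinyl enzyme, was at 173, 172 and 169 CPM with siNC, 202, 198 and 199 CPM with siZIP7_1 and 208, 220 and 221 CPM with siZIP7_2. CARS rose with both siRNAs, by log2 fold changes of 0.22 ± 0.045 and 0.34 ± 0.045, and with WARS, the tryptophanyl enzyme, it was 1 of 2 cytosolic genes that did so, where 17.7% of all genes tested rose with both. WARS had log2 fold changes of 0.45 ± 0.045 and 0.12 ± 0.045, and its siZIP7_2 call was lost without siNC replicate 2 (adjusted p = 0.0833) or siZIP7_2 replicate 3 (adjusted p = 0.0502), and without the filter on low counts (adjusted p = 0.287). The siZIP7_2 call of HARS was also lost without that filter (adjusted p = 0.158).

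The remaining free enzymes moved by less than 1 on the log2 scale. YARS, the tyrosyl enzyme, fell by 0.38 on the log2 scale with each siRNA. AARS and NARS, the alanyl and asparaginyl enzymes, rose slightly with siZIP7_1 (0.14 and 0.11) and fell with siZIP7_2 (-0.57 and -0.32). The small rise of NARS had an adjusted p of 0.0404 with edgeR and of 0.0525 with DESeq2, and it was also lost without siNC replicate 1, siZIP7_1 replicate 1 or siZIP7_1 replicate 2, while that of AARS was lost without siNC replicate 3 (edgeR adjusted p = 0.0519). VARS and TARS, the valyl and threonyl enzymes, did not pass the test with siZIP7_1 (0.07 and -0.10) and fell with siZIP7_2 (-0.48 and -0.31). In all, 7 cytosolic genes fell with both siRNAs (KARS, LARS, MARS, QARS, FARSA, FARSB and YARS), as did 20.8% of all genes tested.

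**Figure D4:**
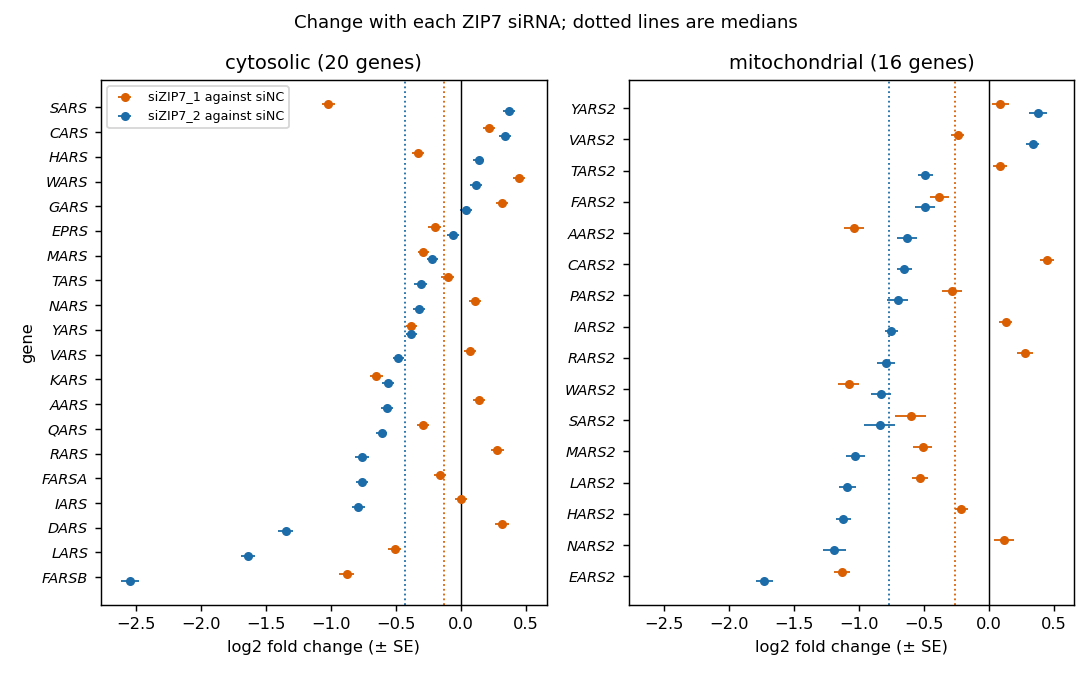
Log2 fold change (± SE) against siNC of each cytosolic gene (left) and mitochondrial gene (right) with siZIP7_1 (orange) and siZIP7_2 (blue), ordered by the siZIP7_2 value, with dotted lines at the medians. The siZIP7_2 medians are -0.43 and -0.77, and SARS, DARS, RARS and CARS2 are among the genes whose points lie on opposite sides of 0.

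Among the mitochondrial genes, 9 fell with both siRNAs, where 20.8% of all genes tested did so, and none rose with both. EARS2, the glutamyl enzyme (chr16:23522014-23557731, GRCh38), was at 42.9, 43.0 and 42.4 CPM with siNC, 18.3, 20.3 and 19.8 CPM with siZIP7_1 and 12.6, 13.6 and 12.4 CPM with siZIP7_2. Its groups did not overlap, and EARS2 fell with both siRNAs (-1.13 ± 0.062, adjusted p = 8.5e-16, and -1.73 ± 0.066, adjusted p = 1.44e-19). LARS2, the leucyl enzyme, was at 41.8, 45.3 and 42.7 CPM with siNC, 31.0, 30.1 and 28.9 CPM with siZIP7_1 and 21.6, 18.7 and 20.8 CPM with siZIP7_2, a fall by 0.53 and 1.09 on the log2 scale with no overlap. HARS2, the histidyl enzyme, was at 60.7, 57.5 and 56.1 CPM with siNC, 49.5, 50 and 50.8 CPM with siZIP7_1 and 28.0, 25.9 and 26.3 CPM with siZIP7_2. HARS2 fell slightly with siZIP7_1 (-0.21 ± 0.052) and to a greater extent with siZIP7_2 (-1.12 ± 0.056). WARS2 and AARS2, the tryptophanyl and alanyl enzymes, were lowest with siZIP7_1 (-1.08 and -1.04, against -0.83 and -0.63 with siZIP7_2). The other genes that fell with both were MARS2 (-0.51 and -1.03), SARS2 (-0.60 and -0.84), PARS2 (-0.28 and -0.70) and FARS2 (-0.38 and -0.49), the methionyl, seryl, prolyl and phenylalanyl enzymes. All 7 mitochondrial genes of class II, the structural class of synthetases built on an antiparallel sheet, fell with siZIP7_2, and 5 of them fell with siZIP7_1, beside 7 and 5 of the 9 genes of class I and 39.3% and 35.9% of all genes tested.

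The other mitochondrial genes moved in opposite directions or with 1 siRNA. NARS2, the asparaginyl enzyme, was at 17.1, 18.6 and 17.9 CPM with siNC, 18.6, 20.5 and 19.1 CPM with siZIP7_1 and 6.6, 8.85 and 8 CPM with siZIP7_2. NARS2 passed the test with siZIP7_2 (-1.19 ± 0.09, adjusted p = 9.89e-13) and not with siZIP7_1 (0.12 ± 0.079, adjusted p = 0.174). CARS2, the cysteinyl enzyme, was at 43.2, 43.9 and 40.0 CPM with siNC, 57.8, 56.4 and 59.2 CPM with siZIP7_1 and 25.3, 27.9 and 27.5 CPM with siZIP7_2. CARS2 thus rose with siZIP7_1 (0.45 ± 0.055) and fell with siZIP7_2 (-0.65 ± 0.059), while its cytosolic counterpart CARS rose with both. RARS2 and IARS2, the arginyl and isoleucyl enzymes, also rose with siZIP7_1 (0.28 and 0.13) and fell with siZIP7_2 (-0.79 and -0.75). The rise of IARS2 (edgeR adjusted p = 0.0212) was lost without siNC replicate 1 (0.0589), siNC replicate 2 (0.0636) or siZIP7_1 replicate 2 (0.199). YARS2, the tyrosyl enzyme, was at 0.09 and passed only with siZIP7_2 (0.38 ± 0.067), and VARS2, the valyl enzyme, fell with siZIP7_1 (-0.24 ± 0.051) and rose with siZIP7_2 (0.34 ± 0.05). VARS2 shares 22% of its exonic bases with GTF2H4, and TARS2, the threonyl enzyme, was at 0.09 and -0.49 and passed with siZIP7_2.

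**Figure D5:**
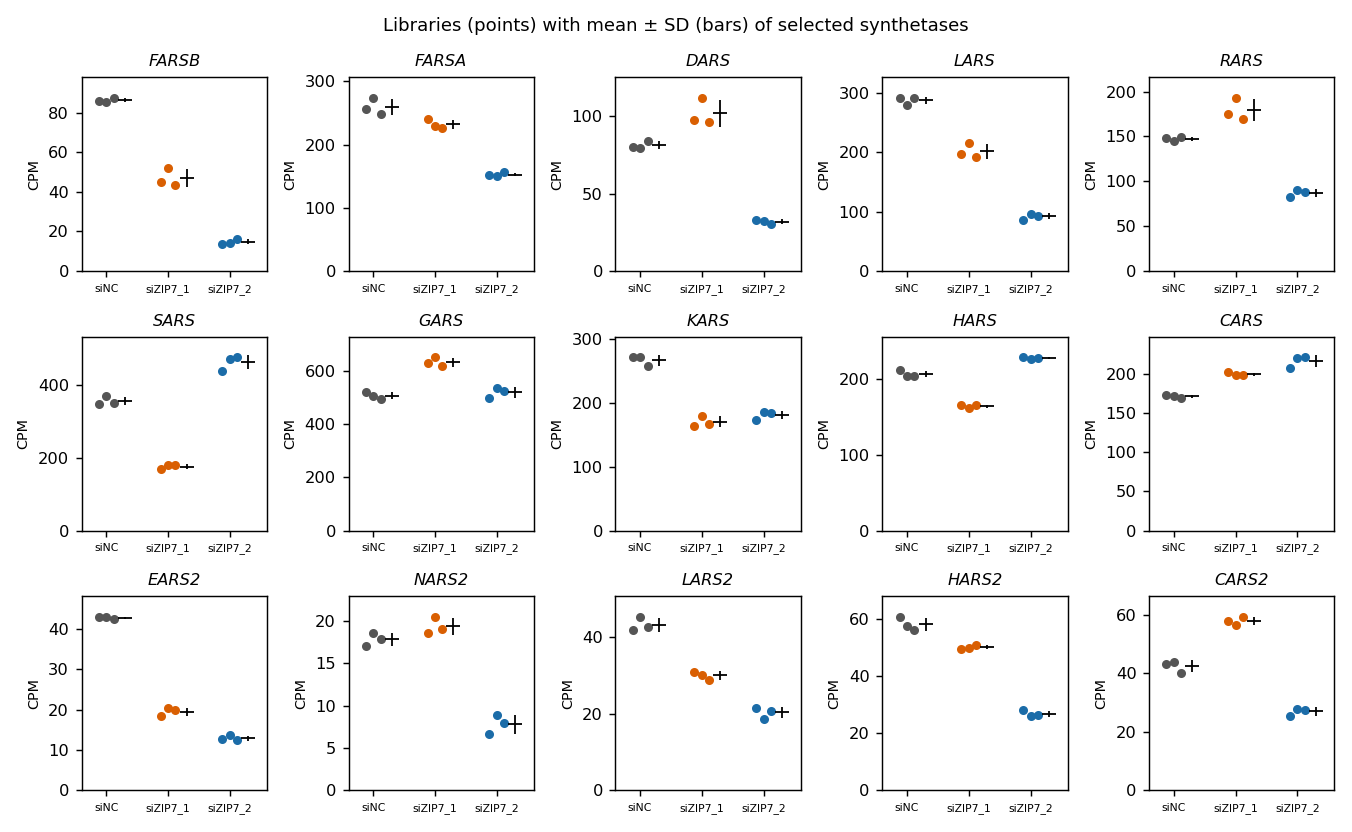
CPM of 15 synthetase genes in each library (points, 3 per group), with mean ± SD beside them (bars) and axes from 0. FARSB has its siNC libraries at 85.2 to 87.4 CPM and its siZIP7_2 libraries at 13.6 to 16.1 CPM, SARS is lowest with siZIP7_1, and DARS, RARS and CARS2 are highest with siZIP7_1 and lowest with siZIP7_2.

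HARS and HARS2 start in opposite directions, with RefSeq starts at bases 140691370 and 140691455 of chromosome 5 and 84 bases between them, although GENCODE 29 models of the pair overlap. The pair moved differently with siZIP7_2 (log2 fold changes of 0.14 for HARS and -1.12 for HARS2) and less so with siZIP7_1 (-0.33 and -0.21). HARS2 shares 15.8% of its exonic bases with HARS and ZMAT2. Over the 15 pairs of the same amino acid, the mitochondrial gene had the lower log2 fold change in 8 pairs with siZIP7_1 (in the pair of RARS2 and RARS by 0.277 against 0.282) and in 11 pairs with siZIP7_2.

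Whether the siRNAs differed was tested directly in the same fit. Between siZIP7_2 and siZIP7_1, 4 cytosolic genes were higher and 13 lower with siZIP7_2 (median -0.33), and 4 mitochondrial genes were higher and 10 lower (median -0.54), where 78.7% of all genes tested passed with 38.1% higher and 40.6% lower. The median of all genes was -0.02. DARS and FARSB had the lowest values (-1.67 each), and SARS the highest (1.39). With 1 library left out, the count of cytosolic genes higher ranged from 2 to 5, and it was 2 without siZIP7_1 replicate 3 or siZIP7_2 replicate 2. Of the cytosolic genes 4 (AARS, DARS, NARS and RARS) rose with siZIP7_1 and fell with siZIP7_2, as did 3 mitochondrial genes, where 9.4% of all genes tested did so. The opposite order, fall with siZIP7_1 and rise with siZIP7_2, held for HARS, SARS and VARS2, where 9.33% of all genes did so.

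Cytosolic genes with and without the C/EBP-ATF core in their windows were set side by side. The 7 with it had a median log2 fold change of 0.11 with siZIP7_1, where 4 rose and 1 fell, and of -0.31 with siZIP7_2, where 1 rose and 5 fell. The 9 without it had medians of -0.29 and -0.56, where 2 rose and 7 fell with siZIP7_1 and 3 rose and 5 fell with siZIP7_2. Among all genes tested, 34.8% rose and 35.9% fell with siZIP7_1, and 38.5% and 39.3% with siZIP7_2. LARS, DARS, YARS and VARS had no matched window and are in neither group (-1.64, -1.35, -0.38 and -0.48 with siZIP7_2). The mRNA of ATF4 itself had log2 fold changes of -0.21 ± 0.046 and -0.66 ± 0.047, and ATF4 protein was not measured here. Of the 3 mitochondrial genes with an E-box, all fell with siZIP7_2 (median -1.03), and CARS2 rose with siZIP7_1 while EARS2 and MARS2 fell. Most of the 11 mitochondrial genes with a window but no E-box fell as well. With siZIP7_2, 10 of these 11 fell and 1 rose (median -0.79), and with siZIP7_1, 6 fell and 2 rose (median -0.21). A link of the E-box to the fall was not tested.

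The accessory genes of tRNA charging described here numbered 12, of which 3 rose and 7 fell with siZIP7_1 and 2 rose and 9 fell with siZIP7_2 (medians -0.33 and -0.66), where 34.8% and 35.9% of all genes tested rose and fell with siZIP7_1 and 38.5% and 39.3% with siZIP7_2. In mitochondria glutaminyl-tRNA is made by an amidotransferase of QRSL1, GATB and GATC subunits that corrects the glutamate placed by EARS2. QRSL1 fell with both siRNAs (-1.01 ± 0.082 and -1.04 ± 0.084), as did GATC (-0.55 and -0.30), while GATB was at 0.08 with siZIP7_1 and fell with siZIP7_2 (-0.73). GATC shares 47.6% of its exonic bases with other annotated genes, so its values were uncertain. TARSL2, a further threonyl enzyme, rose with both (0.83 and 0.91), and SEPSECS, which completes selenocysteinyl-tRNA, rose with siZIP7_1 (0.35) and fell with siZIP7_2 (-0.22). The siZIP7_2 call of SEPSECS was unstable. It was lost with DESeq2 (adjusted p = 0.115), with upper-quartile scaling in edgeR (adjusted p = 0.279) and in 5 of 9 fits with 1 library left out.

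Elongation factors and tRNA processing genes, which use the charged tRNA or prepare the tRNA, are set against the 35.9% of all genes tested that fell with siZIP7_1 and the 39.3% that fell with siZIP7_2. Of 6 tested cytosolic elongation factor genes, all fell with siZIP7_1 and 5 fell with siZIP7_2, among them EEF1B2 (-0.51 and -0.76) and EEF1D (-0.61 and -0.68), which recharge EEF1A with GTP. EEF1A1, which delivers the aminoacyl-tRNA, was at -0.35 and 0.14, and EIF5A at -0.21 and -0.26. EEF1G was listed at 0 in every library and shares 99.9% of its exonic bases with another annotated gene. Of 11 mitochondrial translation factor genes, 4 rose and 1 fell with siZIP7_1 and 1 rose and 6 fell with siZIP7_2, with MRRF, the ribosome recycling factor, at -0.39 and -1.20, MTIF2, an initiation factor, at 0.04 and -1.09, MTIF3 at 0.34 and -0.14, and MTRF1L, a release factor, at 0.67 and 0.75. Of 11 genes that process or modify mitochondrial tRNA, none rose and 9 fell with siZIP7_1, and 1 rose and 8 fell with siZIP7_2. TRMT5, a tRNA methyltransferase, had -0.70 and -1.70, PUS1, a pseudouridine synthase, -0.80 and -0.95, TRMU -0.16 and -0.06, and KIAA0391, the nuclease of mitochondrial RNase P, 0.22 and 0.83. KIAA0391 shares 45.9% of its exonic bases with other annotated genes, MTRF1L 34.8% and EEF1D 34%, so their values were uncertain.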

How the data were processed

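Single-read RNA-seq libraries of MDA-MB-231 cells were made from total RNA. The authors deposited counts per gene, 1 file for each of 9 libraries, as raw counts that were not normalized. The submitters' processing notes name Trim Galore 0.4.1, FastQC 0.11.2, STAR, HTSeq 0.6.1 and DESeq2 1.16.1. The genome build, the annotation and the strand setting are not given in the sources used here. Rows that name no gene (7.43% to 11.5% outside genes, 2.66% to 2.91% ambiguous) were left out. Identifiers were matched to GENCODE 29 (58275 of 58395). Counts were fitted in R 4.3.3 with edgeR 4.0.16 (quasi-likelihood test, TMM scaling, filterByExpr, 1 fit with 3 groups and 6 residual degrees of freedom, Benjamini-Hochberg over 16761 genes, threshold 0.05), with DESeq2 1.42.0 as an alternative, and tested on simulated data first. RPKM uses the exonic length of each gene. Libraries were grouped by their labels, and the study describes the transfections as triplicates without saying whether they were made on separate days or from separate cultures, so p-values measure the spread between these triplicates, which may be technical. Libraries of a group differed by more than sampling noise (chi-squared per gene 2.41 to 6.42). Named were the 36 genes, of which the 5 cytosolic and 5 mitochondrial with the largest change, HARS and HARS2, GARS and KARS, and CARS and CARS2 are given in every library (FARSA was added as partner of FARSB), and of each other list the 2 highest and 2 lowest by mean change. The genes EEF1E1, AIMP1, GATB and GATC were added as complex subunits. From the accessory list and the blood cell markers 1 gene each is not reported here. The members and lists were chosen with earlier results of these data known.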

Additional observations from a re-analysis of the deposited data

Results flagged for a closer look

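For 10 of the 36 synthetase genes the siRNAs moved the mRNA in opposite directions, each passing the test against siNC. The difference between the siRNAs also passed in edgeR. Opposite calls against the same siNC libraries make that nearly certain in advance, so it adds no separate support. Of all genes tested 9.4% were higher with siZIP7_1 and lower with siZIP7_2, and 9.33% the reverse. With a test against a 1.2-fold change, 2 of the 10 genes (SARS and CARS2) kept both calls against siNC. The siZIP7_1 calls of NARS, AARS and IARS2 were also lost with 1 library left out. The log2 difference of siZIP7_2 from siZIP7_1 was -1.67 ± 0.059 (SE) for DARS, -1.04 ± 0.052 for RARS, -0.71 ± 0.046 for AARS and -0.43 ± 0.047 for NARS, all higher than siNC with siZIP7_1 and lower with siZIP7_2. The mitochondrial genes of the same order were CARS2 (-1.10 ± 0.057), RARS2 (-1.07 ± 0.068) and IARS2 (-0.88 ± 0.051). The reverse order gave SARS at 1.39 ± 0.049, VARS2 at 0.58 ± 0.05 and HARS at 0.47 ± 0.044. DARS shares 7.6% of its exonic bases with DARS-AS1. Both siRNAs lowered SLC39A7 (35.6 and 19.2 CPM on average), and the depth of the knockdown, the sequence of the siRNA and the group cannot be told apart here.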

How the results depend on the processing

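Of 192 results, from 149 (test against a 1.2-fold change) to 192 (replicate block) were classed as the same under each alternative. For single genes this meant the same direction and side of the threshold. Counts of genes had to stay within a set ratio of the main count, and medians within the spread between libraries. The cause of the changes was not tested. Blocking on the replicate number moved the counts of genes called to 11927, 13080 and 13242 and changed no call of the synthetases, with a cytosolic median of -0.426 for siZIP7_2. Same-numbered libraries deviated from their group means with correlations of -0.049 to 0.075, so the numbers do not pair them. Tested against a 1.2-fold change, cytosolic genes called with siZIP7_1 were 1 higher and 6 lower, and mitochondrial genes 1 higher. Cytosolic genes with siZIP7_2 were 2 higher, and between the siRNAs 2 cytosolic and 2 mitochondrial genes were higher. Of 16761 genes tested, 8574 passed this test with siZIP7_1, 10284 with siZIP7_2 and 10559 between the siRNAs. Without the filter, 2 cytosolic genes were higher with siZIP7_2 and 2 between the siRNAs, the medians were -0.827 (mitochondrial, siZIP7_2), -0.375 (cytosolic, between siRNAs) and -0.592 (mitochondrial, between siRNAs), and GARS with siZIP7_2 (-0.016) and YARS between siRNAs (-0.046) changed sign. Upper-quartile scaling moved the all-gene median with siZIP7_2 from -0.002 to 0.104, the medians of the cytosolic and mitochondrial genes to -0.32 and -0.668 with siZIP7_2 and to -0.246 and -0.462 between siRNAs, and turned IARS with siZIP7_1 (0.023), EPRS (0.049) and TRMU (0.048) with siZIP7_2, and QRSL1 (0.053), EEF1D (0.011) and EIF5A (0.033) between siRNAs. With at least 10 counts in every library the same 4 medians were -0.351, -0.7, -0.276 and -0.492, and IARS (0.02), EPRS (0.017), TRMU (0.016), QRSL1 (0.024) and EIF5A (0.004) turned. DESeq2 size factors gave mitochondrial medians of -0.742 and -0.508 and DESeq2 -0.742 and -0.509, with QRSL1 at 0.008 in both, and a fit of the 2 groups alone put IARS at 0.006. With 1 library left out, the values ranged from -0.037 to 0.031 for IARS with siZIP7_1, -0.019 to 0.07 for MTIF2 with siZIP7_1, -0.031 to 0.041 for YARS and -0.016 to 0.193 for TARSL2 between siRNAs, 2 to 5 for cytosolic genes higher between siRNAs and -0.594 to -0.522 for that mitochondrial median. Each synthetase had at least 80 counts in every library.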

Other observations

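The list of 36 genes of the integrated stress response and its known ATF4 targets had 35 tested members, with CBS listed at 0, and 8 rose and 16 fell with siZIP7_1 while 14 rose and 17 fell with siZIP7_2 (medians -0.08 and -0.06). Of all genes tested 34.8% rose and 35.9% fell with siZIP7_1, and 38.5% and 39.3% with siZIP7_2. EIF2AK3, the endoplasmic reticulum kinase PERK, rose with both (log2 fold changes of 1.26 ± 0.059 and 0.93 ± 0.06). VLDLR, a lipoprotein receptor, was at 0.13 ± 0.06 with siZIP7_1 and rose with siZIP7_2 (1.53 ± 0.057). SLC6A9, a glycine transporter, fell with both (-1.63 ± 0.059 and -1.14 ± 0.058), and so did ALDH18A1, an enzyme of proline synthesis (-0.45 ± 0.05 and -2 ± 0.054). Of the 8 amino acid transporters in the list, none rose and 4 fell with siZIP7_1 and 2 rose and 4 fell with siZIP7_2.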
